A study of Mus musculus with 9 samples.

Results

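A set of 40 genes of DNA break, crosslink and mismatch repair was followed in mouse embryonic stem cells that had lost Xpc, the damage sensor that opens nucleotide excision repair. The 40 genes were chosen by name and function and not by a rule on their values, although earlier results of these data were known. Every non-control probe whose gene name in the scanner files was one of the 40 belonged to the set. They were represented by 55 of the 55681 non-control probes of the array, and all 40 were among the 19913 genes tested. The set asks whether other repair pathways shift at the RNA level when Xpc is lost.

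The study used an inducible Cre-loxP knockout line of mouse embryonic stem cells and measured total RNA on 9 one-colour arrays in 3 groups of 3. The null group was subcloned Xpc-null stem cells. The induced group carried the floxed Xpc alleles and was collected 4 days after deletion. The floxed group carried the same alleles undeleted. The sample titles mark the induced group as with, and the floxed group as without, an agent abbreviated Tx that the labels do not spell out. The null cells therefore differ from the floxed cells both by Xpc and by having been subcloned, and no group received the induction without losing Xpc. The driver of Cre is not given in the sources used here. Neither is it stated whether the 3 arrays of a group came from separate cultures, so the p-values below measure the spread between arrays, which may be technical.

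Cells mend broken chromosomes either by copying the sister chromatid, which is homologous recombination, or by rejoining the ends directly. Crosslinks between the strands are unhooked through the Fanconi anaemia pathway, which hands the resulting break to recombination, and mispaired bases left by replication are removed by mismatch repair. The kinases Atm and Atr sense these lesions and, through Chek2 and Chek1, hold the cell cycle. Embryonic stem cells divide rapidly, spend much of the cycle in S phase and rely strongly on recombination.

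Signal is given throughout as the log2 of a probe's processed signal minus the log2 of its array's 75th percentile, so that 0 is the level of that percentile. A difference of 1 is 2-fold. A gene passed when its adjusted p in limma, with Benjamini-Hochberg adjustment over all genes tested, was under 0.05. Each gene had 1 estimate of spread over the 3 groups, so the floxed arrays also enter the SE and p of null against induced cells. Xpc, the check of the labels, was at -0.85, -1.53 and -1.37 in null cells, at -1.11, -0.68 and -1.05 in induced cells, and at 0.59, 0.55 and 0.16 in floxed cells. This left 31.1% of the floxed level in null cells (adjusted p = 0.00584) and 38.4% in induced cells (adjusted p = 0.224). Neither the null nor the induced arrays overlapped the floxed arrays, although the induced difference did not pass after adjustment. Well above background were 47.4% to 57.9% of non-control spots per array. The 12 stem cell markers were all measured, with a mean level between 4.04 and 4.53 on every array, and in null against induced cells 8 of them had negative differences, with a median of -0.23. The lowest were -0.83 for Tfcp2l1, -0.66 for Esrrb and -0.63 for Nanog, which did not pass with all arrays (adjusted p of 0.126, 0.144 and 0.116), and 1 marker, Utf1, rose (0.59, adjusted p = 0.0322). In the limma fit without floxed array 3, described next, these 3 passed as lower in null against induced cells. Their adjusted p was 0.001, 0.00256 and 0.0344, and Utf1 again passed as higher. In null against floxed cells 0 stem cell markers passed with all arrays, and without floxed array 3, 6 fell and 1 rose. Of 13 fibroblast markers 9 were measured, and 6 of them fell in null cells against floxed cells, while Postn, Lum, Dcn and Pdgfrb were too dim to be tested. The other 3 had positive differences, and 0 of them passed. Of these, Thy1 differed by 1.37 (adjusted p = 0.104), and it rose by 1.92 without floxed array 3 (adjusted p = 0.000142). The mean level of the 9 measured markers ranged over -0.96 to -0.79 in null cells, 0.11 to 0.23 in induced cells and 0.36 to 0.53 in floxed cells. Of 10 epithelial and trophectoderm markers 9 were measured, and 6 fell in null cells against floxed cells. The other 3 had positive differences and did not pass, but Eomes rose by 0.87 without floxed array 3 (adjusted p = 0.00391). Of 7 endoderm markers 1 was measured, of 8 blood and endothelium markers 7 were, and none of these passed with all arrays. Without floxed array 3, 4 of the 7 blood and endothelium markers rose and 2 fell in null against floxed cells. Whether fewer cells of a type or less RNA per cell lies behind a lower signal cannot be told apart in such bulk RNA. The part of these markers in the results below was not tested.

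One array stood apart. On the first principal component over all genes, the null arrays scored 29.1 to 36.2, the induced arrays -22.8 to -14.9, floxed arrays 1 and 2 scored -32.6 and -33.9, and floxed array 3 scored 24.2. Over the 40 repair genes alone the same component held 60.1% of the variance, with 0.995 to 1.13 for the null arrays, -0.91 to -0.46 for the induced arrays, -1.19 and -1.03 for floxed arrays 1 and 2, and 1.02 for floxed array 3. Floxed array 3 thus lay with the null arrays on both first components. On the second component of the 40 genes (15.8%) floxed array 3 and null array 3 scored 0.70, null arrays 1 and 2 -0.99 and -0.31. In mean level, floxed array 3 stood apart from the null arrays for fibroblast (0.36) and epithelial and trophectoderm markers (1.31 against 0.00 to 0.09). It stood near them for stem cell (4.04 against 4.12 to 4.24) and blood and endothelium markers (-0.54 against -0.68 to -0.46). Slides ran across the groups: slide 3 held null arrays 1 and 2 with all induced arrays, slide 2 held null array 3 with floxed array 3, and slide 1 held floxed arrays 1 and 2. Whether floxed array 3 follows its slide or its cells cannot be told apart. Counts of passing genes and the medians of the groups of genes in null against floxed cells are therefore given with and without it. Without it the floxed group is left with slide 1, which held no other group. Rises and falls against floxed cells in that fit cannot be told apart from a difference between slides.

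None of the 40 repair genes passed in any of the 3 comparisons when all 9 arrays were used without a term for the slide. With slide as a fixed block 8 of the 40 passed in null against induced cells, where 3249 of all 19913 genes did. With slide as a random block 4 of the 40 passed, where 1812 of all genes did. In null against floxed cells 0 repair genes passed with slide as a random block, where 103 of all genes did. The fixed block gives no usable count there. Floxed arrays 1 and 2 had slide 1 to themselves, so its difference is only null array 3 minus floxed array 3. Without a term for the slide, 1.85% of all genes passed for null against floxed cells and 2.20% for null against induced cells. For induced against floxed cells 0.00502% did, which is 1 gene of 19913. At an unadjusted p under 0.05 there were 10 repair genes in null against floxed cells, where 22.8% of all genes lay under it, and 10 in null against induced cells, where 23.8% did. In induced against floxed cells 0 repair genes lay under it, against 5.91% of all genes. The lowest adjusted p among the 40 was 0.0557 for Rad54l in null against floxed cells, 0.0596 for Fancf in null against induced cells and 0.946 in induced against floxed cells.

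The median log2 difference of the 40 genes was 0.07 in null against floxed cells (0.03 without floxed array 3, 0.11 without null array 3 and 0.02 within slide 2), 0.03 in null against induced cells and 0.04 in induced against floxed cells. Over all genes tested the median was 0.01 in null against floxed cells, 0.02 in null against induced cells and -0.000691 in induced against floxed cells. The differences of single repair genes ran from -0.58 to 0.55 in null against floxed cells, from -0.64 to 0.88 in null against induced cells and from -0.42 to 0.24 in induced against floxed cells. No gene thus reached 2-fold at its brightest probe, although a dimmer Fancc probe, described below, differed by -1.04 in null against floxed cells. The 95% interval of the difference lay inside 2-fold in either direction for 37 of 40 repair genes in null against floxed cells, all but Chek1, Brip1 and Xrcc4. It did so for 38 in null against induced cells, all but Chek1 and Xrcc4, and for 39 in induced against floxed cells, all but Chek1. Inside 1.5-fold it lay for 29 in null against floxed cells, 26 in null against induced cells and 35 in induced against floxed cells.

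**Figure D1:**
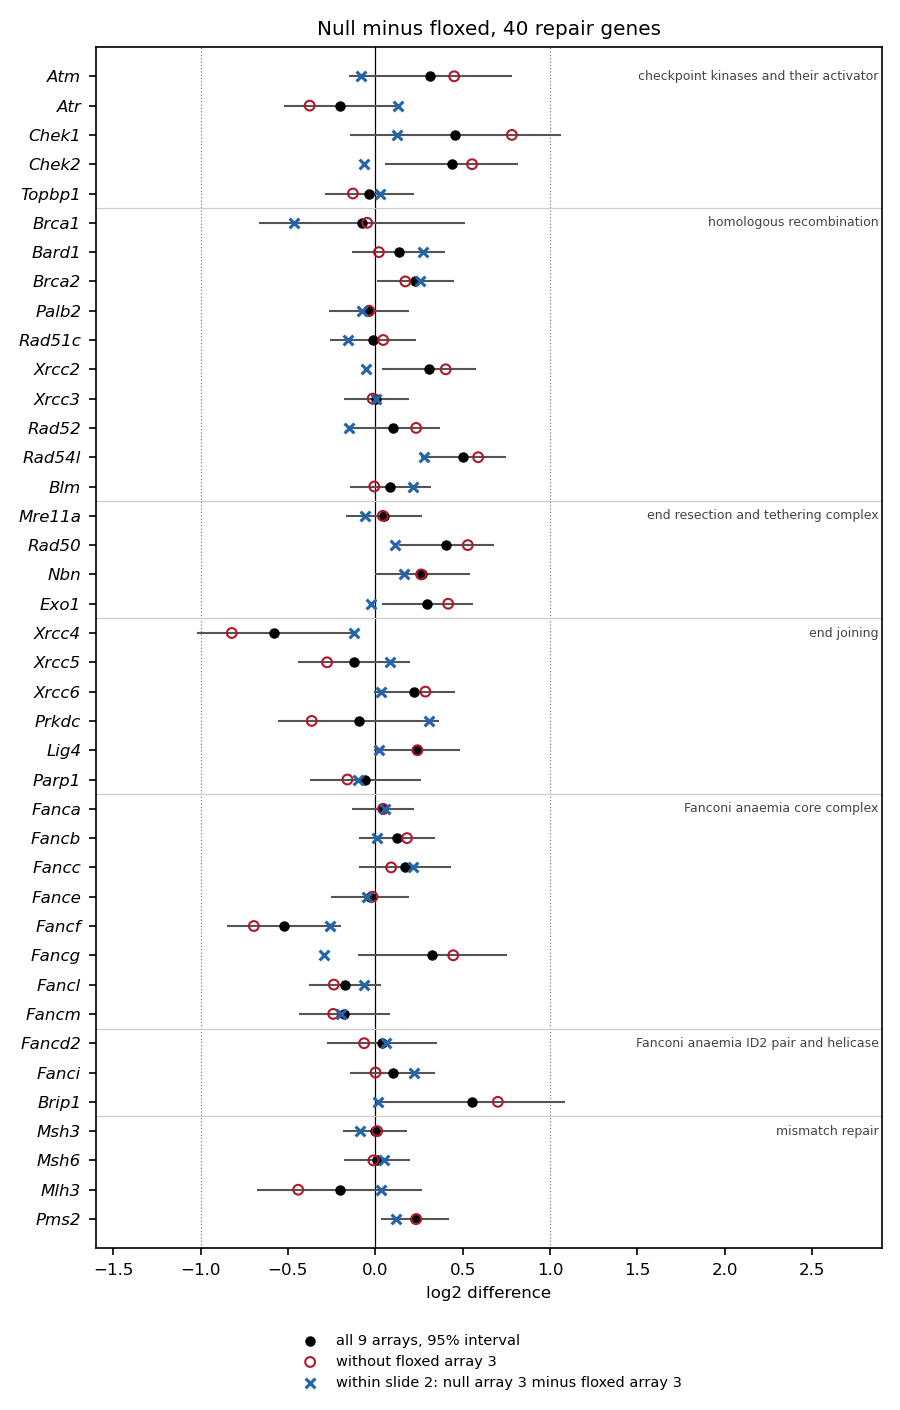
The log2 difference of null minus floxed cells is drawn for each of the 40 repair genes, grouped by role, with black points and bars for all 9 arrays (limma, 95% interval), open red circles without floxed array 3, and blue crosses for null array 3 minus floxed array 3, which share a slide. Dotted lines mark 2-fold, and for genes with large differences, such as Xrcc4, Fancf and Rad54l, the red circle lies farther from 0 and the blue cross nearer to 0 than the black point.

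The values on single arrays show what kind of differences these were. In null against floxed cells 6 repair genes were higher on every null array than on any floxed array (Brca2, Rad54l, Rad50, Nbn, Xrcc6 and Pms2), where 12.0% of all genes were. Lower in the same sense were 3 (Xrcc4, Fancf and Fancl), where 11.4% of all genes were. In null against induced cells 9 were higher without overlap, against 19.0% of all genes, and 8 were lower, against 18.3%. In induced against floxed cells Lig4, Fanca, Msh3 and Pms2 were higher without overlap, against 6.63% of all genes, and 0 were lower, against 6.26%. The counts among 40 genes were near these background shares in null against floxed and null against induced cells.

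The checkpoint kinases and their activator are 5 of the genes, and the median of their differences was 0.31 in null against floxed cells (0.45 without floxed array 3) and 0.32 in null against induced cells. These medians include Chek1, whose differences are not read as a change, and so are not read as a shift of the group. In null against induced cells Atm differed by 0.32, Chek2 by 0.33, Topbp1 by 0.02 and Atr by -0.29. Chek1, the kinase that Atr activates when replication stalls, was near background on many arrays. It was at -2.91, -2.89 and -2.43 in null cells, at -3.76, -3.43 and -3.66 in induced cells and at -3.66, -3.38 and -2.55 in floxed cells (probe at chr9:36516068-36516127, mm9). The Chek1 probe was well above background on 3 of 3 null arrays, 1 of 3 induced arrays and 1 of 3 floxed arrays, so it was tested only through the null group, and neither the size nor the p of its differences is read as a change. All null arrays lay above all induced arrays, while floxed array 3 lay among the null arrays. The difference of null minus induced cells was 0.88 (SE 0.27, limma adjusted p = 0.109), but 0.20 with normexp background correction and 0.16 from the deposited table. That of null minus floxed cells was 0.46 (SE 0.27, adjusted p = 0.333), but 0.12 with normexp and 0.13 from the deposited table.

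Chek2, the kinase that Atm activates at broken ends, was at 0.84, 0.41 and 0.22 in null cells, at 0.20, 0.18 and 0.10 in induced cells and at 0.00, -0.13 and 0.28 in floxed cells (chr5:111294547-111294606). Null array 1 was the high one, and floxed array 3 reached into the null range. The difference was 0.44 (SE 0.17, adjusted p = 0.174) in null against floxed cells and 0.33 (adjusted p = 0.263) in null against induced cells. Of the kinases that start the response, Atm differed by 0.31 and Atr by -0.20 in null against floxed cells, with adjusted p of 0.385 and 0.414. Topbp1, which switches on Atr, differed by -0.03. No member of the group passed.

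Homologous recombination gave 10 genes, with a median difference of 0.09 in null against floxed cells (0.03 without floxed array 3) and 0.09 in null against induced cells. Rad54l, a motor protein that helps strand invasion during recombination, came closest to the threshold in null against floxed cells. It was at 1.82, 1.90 and 1.77 in null cells, at 1.47, 1.43 and 1.56 in induced cells and at 1.15, 1.33 and 1.50 in floxed cells (chr4:115769618-115769677). All 3 null arrays lay above the 6 others, and floxed array 3 was the floxed array nearest to them. The difference of null minus floxed cells was 0.50 (SE 0.11, 95% interval 0.26 to 0.75, limma adjusted p = 0.0557), which is 1.42-fold, and that of null minus induced cells was 0.34 (adjusted p = 0.114).

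Xrcc2, a recombination mediator, was at -0.51, -0.57 and -0.80 in null cells, at -1.15, -0.99 and -1.09 in induced cells and at -1.01, -1.05 and -0.74 in floxed cells (chr5:25196044-25196103). Null and induced arrays did not overlap, while floxed array 3 lay above null array 3. The difference was 0.45 (SE 0.12, adjusted p = 0.0849) in null against induced cells and 0.31 (SE 0.12, adjusted p = 0.178) in null against floxed cells. At a dimmer Xrcc2 probe, with every probe as its own feature, these differences were 0.19 (adjusted p = 0.563) and 0.24 (adjusted p = 0.464). There the null and induced arrays overlapped. Rad51c, another recombination mediator, was one of the 6 repair genes with the largest moderated t in induced against floxed cells, yet its difference there was only -0.17 (SE 0.11, adjusted p = 0.946). Rad51c was at 5.92, 5.88 and 5.87 in null cells, at 5.87, 5.61 and 5.71 in induced cells and at 5.74, 5.95 and 6.02 in floxed cells (chr11:87190997-87191056), and the 3 groups overlapped.

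Brca2, a recombination mediator and tumour suppressor, was at 2.86, 2.92 and 2.76 in null cells, at 2.64, 2.79 and 2.79 in induced cells and at 2.69, 2.66 and 2.50 in floxed cells (chr5:151372225-151372284). The null arrays lay just above the floxed ones and overlapped the induced ones. The difference of null minus floxed cells was 0.23 (SE 0.10, adjusted p = 0.206), or 1.17-fold. The other 6 recombination genes differed less in null against floxed cells. Brca1 and its partner Bard1, which together form a ubiquitin ligase at breaks, differed by -0.08 and 0.13. Palb2, the bridge between Brca1 and Brca2, differed by -0.04, the recombination gene Xrcc3 by 0.00, the annealing protein Rad52 by 0.10 and the helicase Blm by 0.09. Brca1 had the widest interval of these, from -0.67 to 0.51.

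Tethering and trimming of broken ends gave 4 genes, the Mre11a-Rad50-Nbn complex and Exo1, with a median difference of 0.28 in null against floxed cells (0.34 without floxed array 3) and 0.33 in null against induced cells. Rad50, the ATPase of the complex, was at 2.54, 2.43 and 2.42 in null cells, at 2.04, 1.99 and 2.03 in induced cells and at 2.01, 1.86 and 2.31 in floxed cells. The null arrays lay above all others, with floxed array 3 next. The difference was 0.41 (SE 0.12, adjusted p = 0.107) in null against floxed cells and 0.44 (SE 0.12, adjusted p = 0.0886) in null against induced cells. Nbn, the subunit that brings in Atm, was at 0.21, -0.07 and -0.11 in null cells, at -0.37, -0.46 and -0.27 in induced cells and at -0.38, -0.12 and -0.27 in floxed cells (chr4:15906456-15906515). Its null arrays lay above the rest by a narrow margin over floxed array 2. The difference of null minus induced cells was 0.38 (SE 0.12, adjusted p = 0.118) and that of null minus floxed cells 0.27 (adjusted p = 0.222). Mre11a, the nuclease of the complex, differed by 0.05 in null against floxed cells, and Exo1, which extends the resection and also serves mismatch repair, by 0.30 (adjusted p = 0.178).

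End joining gave 6 genes, with a median difference of -0.08 in null against floxed cells (-0.22 without floxed array 3) and -0.10 in null against induced cells. Xrcc4, the scaffold of the ligase that seals the ends, was at -0.43, -0.33 and -0.42 in null cells, at 0.40, 0.06 and 0.11 in induced cells and at 0.39, 0.46 and -0.30 in floxed cells. The null arrays were the lowest 3, and floxed array 3 lay just above them and 0.73 below the mean of floxed arrays 1 and 2. The difference was -0.58 in both comparisons (SE 0.20), with an adjusted p of 0.138 against floxed and 0.130 against induced cells. Of its partners, the ligase Lig4 differed by 0.24 in null against floxed cells. The end-binding subunits Xrcc5 and Xrcc6 differed by -0.12 and 0.22, and the kinase Prkdc that docks on them by -0.10. Parp1, which senses nicks and serves the alternative route, differed by -0.06.

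The Fanconi anaemia core complex and its anchor gave 8 genes, with a median difference of 0.01 in null against floxed cells, with or without floxed array 3, and in null against induced cells. Fancf, an adaptor of the core complex, was the single repair gene closest to the threshold in null against induced cells. It was at 1.20, 1.25 and 1.09 in null cells, at 1.80, 1.81 and 1.85 in induced cells and at 1.88, 1.87 and 1.35 in floxed cells. The induced arrays and floxed arrays 1 and 2 lay close together, floxed array 3 lay between them and the null arrays, and the null arrays were the lowest 3. The difference of null minus induced cells was -0.64 (SE 0.14, adjusted p = 0.0596), leaving 64.3% of the induced level, and that of null minus floxed cells was -0.52 (SE 0.14, adjusted p = 0.096), leaving 69.7% of the floxed level. The SD was 0.08 in null, 0.03 in induced and 0.30 in floxed cells, which share the SE. In the limma fit without floxed array 3 the difference of null minus induced cells had an adjusted p of 0.00172. Fancl, the ubiquitin ligase of the complex, had lower values on all null arrays than on any other array, by -0.17 against floxed and -0.21 against induced cells (adjusted p = 0.281 and 0.193).

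The remaining core genes differed by 0.04 (Fanca), 0.12 (Fancb), 0.17 (Fancc), -0.03 (Fance) and 0.33 (Fancg) in null against floxed cells, and Fancm, the translocase that anchors the complex to DNA, by -0.18. Fancc was among the 6 repair genes with the largest moderated t in induced against floxed cells, with a difference of 0.14 (SE 0.12, adjusted p = 0.968). At its brighter probe it was at -0.50, -0.30 and -0.57 in null cells, at -0.55, -0.37 and -0.54 in induced cells and at -0.59, -0.51 and -0.79 in floxed cells, with overlap between all groups. Fancd2 and Fanci, the pair that the core complex ubiquitinates, differed by 0.04 and 0.10 in null against floxed cells. Brip1, the helicase that works with Brca1, differed by 0.55 (SE 0.24, adjusted p = 0.206), with null array 2 high at -0.82 against -1.70 and -1.62 on the other null arrays.

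Mismatch repair gave 4 genes, with a median difference of 0.00 in null against floxed cells, with or without floxed array 3. Pms2, the endonuclease partner of the main mismatch repair dimer, was at 1.60, 1.64 and 1.47 in null cells, at 1.47, 1.41 and 1.49 in induced cells and at 1.31, 1.37 and 1.36 in floxed cells (chr5:144692034-144692093). Both the null and the induced arrays lay above all floxed arrays. The differences were small, at 0.23 (SE 0.09, adjusted p = 0.168) in null against floxed cells and 0.11 (adjusted p = 0.968) in induced against floxed cells. The mismatch recognition genes Msh3 and Msh6 differed by 0.00 and 0.01 in null against floxed cells, with intervals of -0.19 to 0.18 and -0.18 to 0.20. Mlh3 differed by -0.20, with floxed array 3 at -0.79 against -0.12 and -0.05 on floxed arrays 1 and 2.

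**Figure D2:**
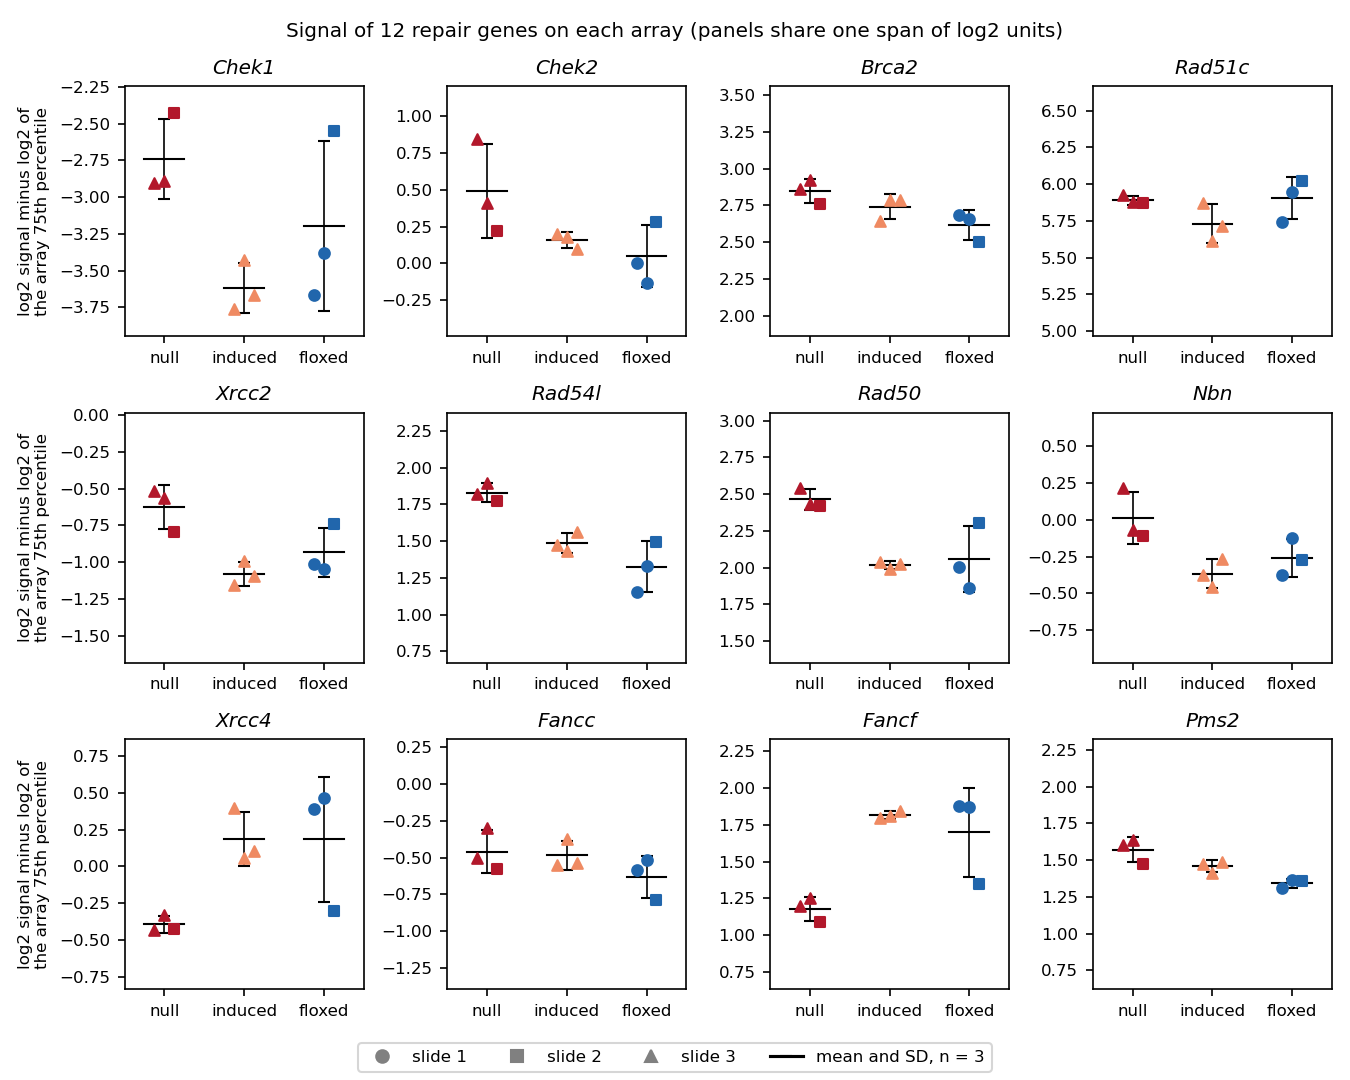
Each panel shows 1 of the 12 repair genes described by array, as the log2 signal relative to the array's 75th percentile on the vertical axis, with null arrays in red, induced arrays in orange and floxed arrays in blue, the symbol giving the slide and the bars the mean and SD (n = 3). Floxed array 3, the blue square, lies toward the null arrays for Chek1, Chek2, Xrcc2, Rad54l, Rad50, Xrcc4 and Fancf.

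Without floxed array 3, 10 of the 40 repair genes (25%) passed in null against floxed cells, against 24.8% of all genes. The share of the set was thus that of the array as a whole. Both floxed arrays of this fit were on slide 1 and the null arrays on slides 2 and 3, so cells and slide cannot be told apart. Within that limit Chek2, Xrcc2, Rad54l, Rad50 and Exo1 were higher on the null arrays, and Atr, Xrcc4, Prkdc and Fancf were lower. With every probe as its own feature, the dimmer probes of Xrcc2 and Atr did not pass (adjusted p = 0.107 and 0.474). The dimmer Rad50 probe passed (adjusted p = 0.00342). Chek1 makes up the 10, but its pass rests on a floxed level near background and is not read as a rise. The sizes ran from -0.82 for Xrcc4 (adjusted p = 0.00243) and -0.70 for Fancf (adjusted p = 0.00115) to 0.59 for Rad54l (adjusted p = 0.0039), leaving Chek1 aside. For each of the 10, floxed array 3 differed from the other floxed arrays in the direction of the null arrays. Because the 10 passed only once that array was left out, this direction was largely set by how they were picked and is no separate result. Within slide 2, null array 3 minus floxed array 3 had the same sign for 5 of the 10, and this single difference of arrays carries no test. Rad54l differed by 0.28 there and Fancf by -0.26, whereas Chek2 differed by -0.06. Prkdc differed by 0.31 and Atr by 0.13 there, the opposite sign to their -0.36 and -0.38 without floxed array 3. Over the whole set, floxed array 3 lay more than 0.3 from the mean of the other floxed arrays for 17 genes, from -0.80 (Prkdc) to 0.97 (Chek1).

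Null and induced cells can be set against each other on slide 3 alone, with 2 null and 3 induced arrays and no floxed array. There 5 of 40 repair genes (12.5%) passed, against 12.4% of all genes. At their brighter probes Xrcc2 rose by 0.54 (adjusted p = 0.0223) and Rad50 by 0.47 (adjusted p = 0.0281). With every probe as its own feature, the dimmer Xrcc2 probe differed by only 0.09 (adjusted p = 0.745). The dimmer Rad50 probe differed by 0.50 (adjusted p = 0.0438). Fancf fell, with a difference of -0.59 (adjusted p = 0.0131), as did Xrcc4 at -0.57 (adjusted p = 0.0425). Chek1, well above background on 1 of the 3 induced arrays, is the remaining call, and no rise is read from it. With all null and induced arrays in a fit that left out floxed array 3, 8 of 40 (20%) passed, against 18.1% of all genes. These were Xrcc2, Rad54l, Rad50 and Exo1, which rose, Atr, Xrcc4 and Fancf, which fell, and Chek1, with the same limit. In induced against floxed cells without that array 0 of 40 passed, against 0.728% of all genes, or 145 genes. The lowest adjusted p of the 40 was then 0.345 (Rad54l, a difference of 0.25).

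**Figure D3:**
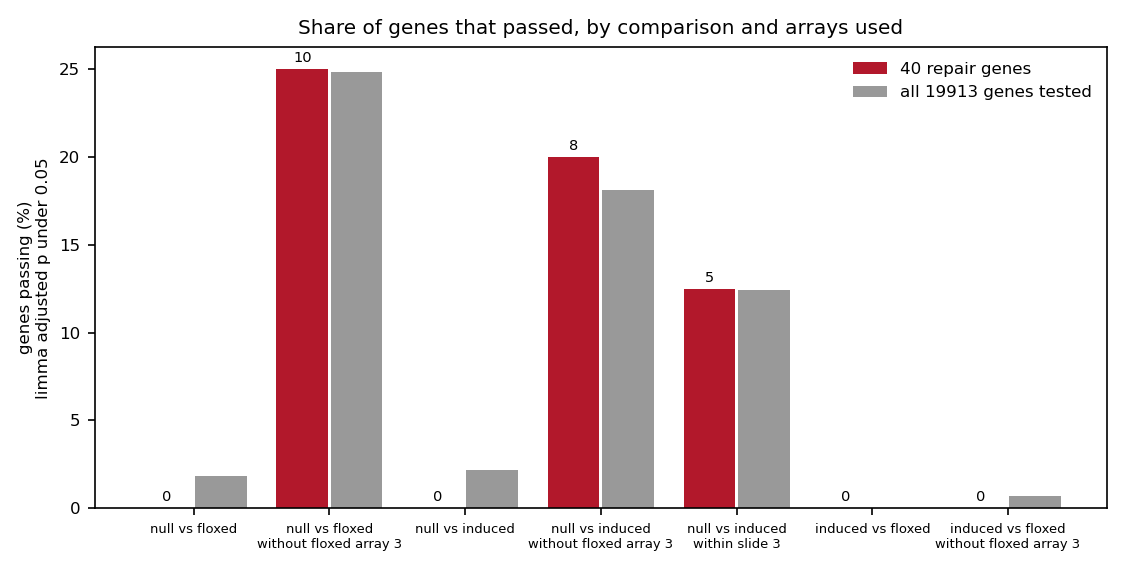
The share of genes that passed (limma, adjusted p under 0.05) is drawn for the 40 repair genes in red, with their number above the bar, and for all 19913 genes tested in grey. Where any repair gene passed, the red and the grey bar stand at similar heights, at 25% and 24.8% in null against floxed cells without floxed array 3.

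**Figure D4:**
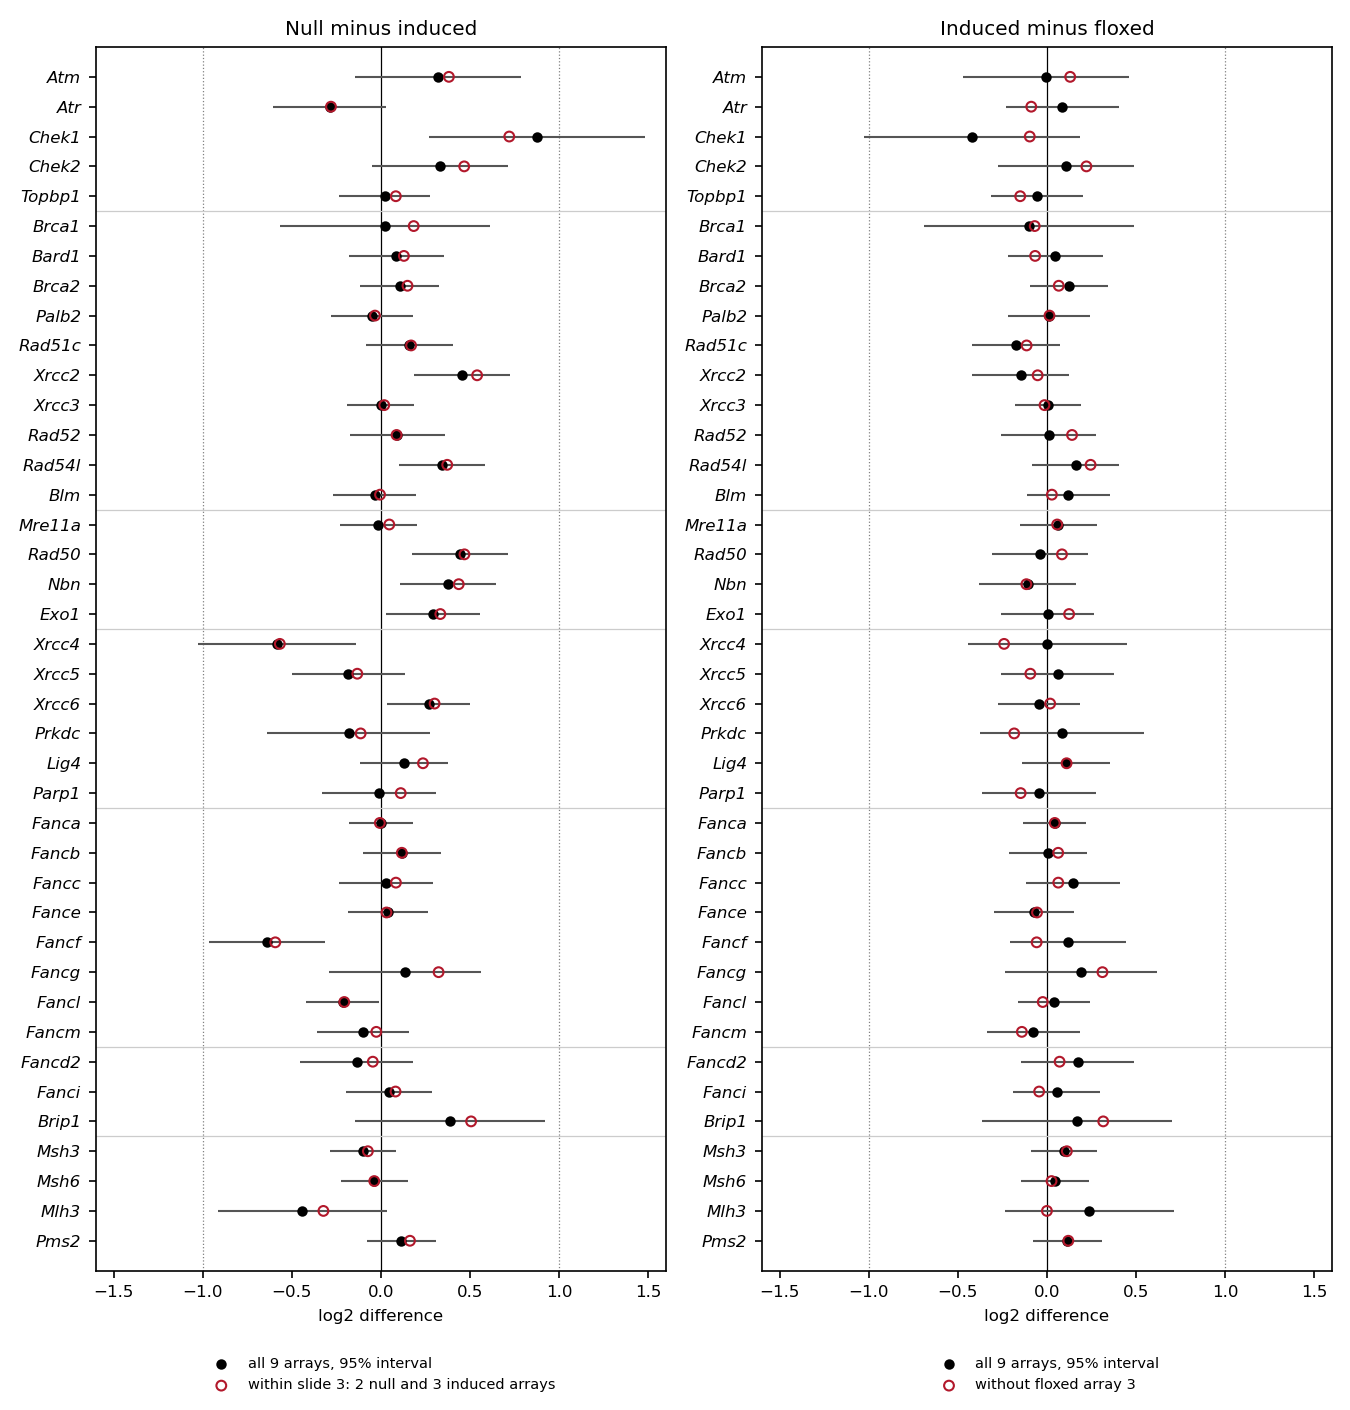
The log2 difference is drawn for each of the 40 repair genes, for null minus induced cells on the left and induced minus floxed cells on the right, with black points and bars for all 9 arrays (limma, 95% interval), and open red circles for slide 3 alone on the left and for the fit without floxed array 3 on the right. Points on the left run between -0.64 and 0.88, and those on the right between -0.42 and 0.24.

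Of the 40 genes, 27 had a single probe, and 11 had 2 or more probes that were above background. Probes of a gene had the same sign in null against floxed cells for 7 of these 11, and not for Fancc, Fancl, Msh3 and Palb2. Where the results turn on a probe, its first 30 of 60 bases are given here 5′ to 3′, with its position in mm9. Fancc and Rad50 are shown because their 2 probes can be compared, and Rad54l, Xrcc4 and Fancf because their differences, among the largest relative to their error, rest on a single probe each.
Fancc, brighter probe, chr13:63412847-63412887, minus strand: agaaatgctgcaaggcaccactatagtgga
Fancc, dimmer probe, chr13:63406052-63406111, minus strand: ctgctcaccacaagcaagaataccttgcta
Rad50, brighter probe, chr11:53463096-53463155, minus strand: ccactgtcttccttcaggaatataaaacca
Rad50, dimmer probe, chr11:53506211-53506270, minus strand: ttttcatgaacttgtgaaagagagacagga
Rad54l, chr4:115769618-115769677, minus strand: ctgggagaaaatcatcaagaagggctgcat
Xrcc4, chr13:89988731-89988790, minus strand: gggacacttttctccctttcttaattaaat
Fancf, chr7:59115948-59116007, minus strand: cttgctttcttttacctgtttaccaaccta

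The 2 Fancc probes carry different RefSeq transcript annotations, and they read apart. The dimmer probe, which lies further along the direction of transcription, was at -2.77, -2.36 and -2.72 in null cells, at -1.70, -1.68 and -1.62 in induced cells and at -1.46, -1.20 and -2.09 in floxed cells. All null arrays lay below all others at this probe, whereas the brighter probe showed overlap. With every probe as its own feature, the difference of null minus floxed cells was -1.04 (SE 0.21, adjusted p over 27536 probes = 0.0557) at the dimmer probe and 0.17 at the brighter one. In null against induced cells it was -0.95 at the dimmer probe (adjusted p = 0.0651). Neither passed with all arrays. In fits added after these values had been seen, the dimmer probe passed on slide 3 alone, at -0.90 (adjusted p = 0.0186), and in null against floxed cells without floxed array 3, at -1.29 (adjusted p = 0.00108). Null array 3 minus floxed array 3 on slide 2 was -0.63. What the dimmer probe reads beyond its annotated transcript was not tested.

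The 2 Rad50 probes, which lie apart in the gene, had differences of like size. The dimmer one was at 0.11, 0.05 and 0.24 in null cells, at -0.55, -0.40 and -0.31 in induced cells and at -0.62, -0.53 and 0.09 in floxed cells. Its difference of null minus floxed cells was 0.49, beside 0.41 at the brighter probe. Its null and induced arrays did not overlap, and floxed array 3 lay within the null range.

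**Figure D5:**
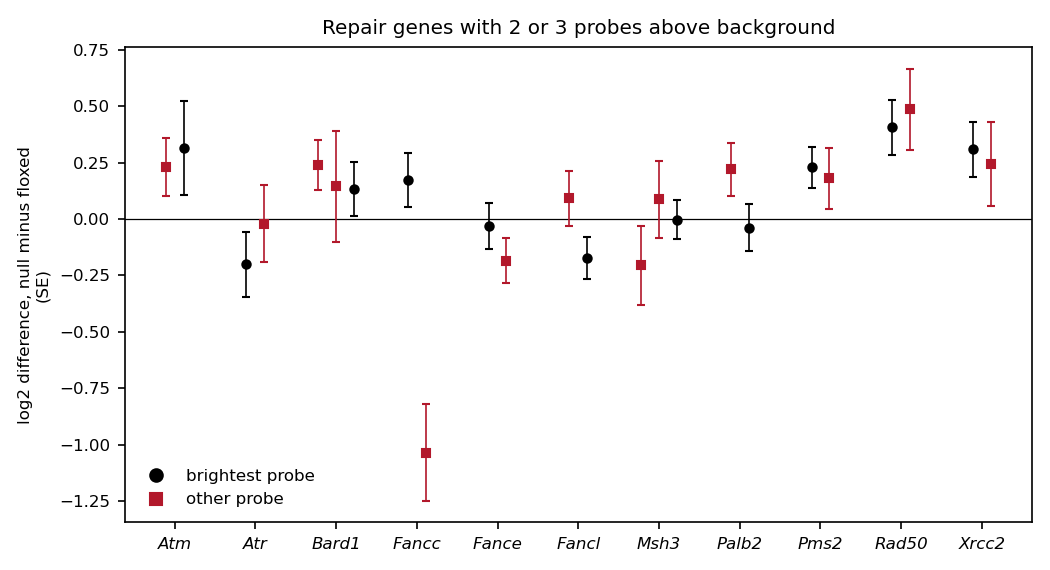
The log2 difference of null minus floxed cells is drawn with its SE for each probe of the 11 repair genes with 2 or 3 probes above background, black for the brightest probe and red for the others. The second Fancc probe, at -1.04, stands away from its partner at 0.17, and the other genes' probes lie within 0.3 of each other.

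Promoters from RefSeq (GRCm38.p6), 250 bases before to 50 after the start, were matched for 34 of the 40 genes. E2F factors, which drive S phase genes, were searched as TTTCCCGC, TTTCGCGC, TTTGCCGC and TTTGGCGC on both strands. At least 1 of these words was in 9 of the 34 promoters (26.5%), against 2.61% of all 27025 genes and 3.29% of protein-coding genes. The 9 genes were Bard1, Brca2, Chek2, Fancg, Msh3, Msh6, Rad51c, Topbp1 and Xrcc6. CCAAT, the word bound by NF-Y, was in 20 of 34 (58.8%), against 41.1% of all genes and 42.3% of protein-coding genes. The GC box GGGCGG, bound by Sp1, was in 25 of 34 (73.5%), against 38.2% of all genes and 49.2% of protein-coding genes. A GC box can share bases with an E2F word, and these matches describe letters and not binding. The 200 bases before the start are shown for Rad54l and Fancf, which had the lowest adjusted p in a comparison, and for Chek2, which holds both E2F and CCAAT words. Capitals mark these 2 kinds of word on either strand.
Rad54l, chr4:116123691-116123890, minus strand: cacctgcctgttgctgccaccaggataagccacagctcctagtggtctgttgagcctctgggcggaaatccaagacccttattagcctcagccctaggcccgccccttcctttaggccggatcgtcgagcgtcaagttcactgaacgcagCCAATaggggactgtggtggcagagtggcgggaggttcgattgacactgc
Fancf, chr7:51862268-51862467, minus strand: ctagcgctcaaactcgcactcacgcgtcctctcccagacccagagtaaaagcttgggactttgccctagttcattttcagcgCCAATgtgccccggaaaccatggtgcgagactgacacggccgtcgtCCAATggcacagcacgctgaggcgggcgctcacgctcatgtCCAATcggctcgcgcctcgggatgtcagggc
Chek2, chr5:110839783-110839982, plus strand: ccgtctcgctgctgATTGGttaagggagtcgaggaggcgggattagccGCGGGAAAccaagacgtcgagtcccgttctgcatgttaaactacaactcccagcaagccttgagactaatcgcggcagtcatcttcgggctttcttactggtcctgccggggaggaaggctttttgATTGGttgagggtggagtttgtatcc
Rad54l, whose signal was higher in null cells, and Fancf, whose signal was lower, each held CCAAT and neither held an E2F word in this window.

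The other genes of these pathways behaved alike in number. None of the 25 other recombination genes, 12 other end joining genes, 15 other mismatch repair genes or 11 other checkpoint genes passed in any comparison with all arrays. The same held for the 11 measured of 12 other Fanconi anaemia genes and the 11 measured of 12 other break signalling genes. Nucleotide excision repair, the pathway that Xpc itself serves, had 23 further genes measured, and 0 of these passed, with a median difference of -0.02 in null against floxed cells (-0.05 without floxed array 3). The 17 replication licensing genes had a median of 0.00 in null against floxed cells (0.01 without floxed array 3) and 0 passed. The 17 genes of the p53 list, the program that checkpoint kinases can switch on, had a median of -0.21 in null against floxed cells (-0.22 without floxed array 3) and -0.11 in induced against floxed cells, and 0 passed.

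Without floxed array 3, 5 of the 25 other recombination genes rose and 5 fell in null against floxed cells. In the same fit 3 of the 11 other checkpoint genes rose and 0 fell, 1 of the 12 other end joining genes rose and 3 fell, and 3 of the 15 other mismatch repair genes rose and 3 fell. Of the 11 other Fanconi anaemia genes 2 rose and 0 fell, of the 11 other break signalling genes 1 rose and 3 fell, and of the 23 excision repair genes 2 rose and 4 fell. Of the p53 list 1 rose and 7 fell, and of the licensing genes 1 rose and 0 fell. These counts stand beside the 24.8% of all genes that passed in that fit, where floxed cells and slide 1 cannot be told apart. Among these lists the share that passed was largest in the p53 list and smallest among the licensing genes.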

How the data were processed

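RNA of 9 samples was labelled with Cy3 and hybridised to 1-colour Agilent arrays. The deposited scanner files hold intensity, background-subtracted by the authors' Agilent Feature Extraction 10.7.3.1, per the submitters' processing notes and the file headers. The deposited value table held the mean signal intensity to within 1% for 100% of values, and was used as an alternative. The processed intensity was divided by the 75th percentile of its array and put on the log2 scale, without control and outlier spots. A probe was kept if some group had it well above background on each of its 3 arrays (27536 probes), and each gene was read at its brightest probe (19913 genes). Gene symbols of 27235 of 55681 probes were updated by RefSeq accession (GRCm38.p6), and the others kept the file's name. Groups were compared with limma 3.58.1 in R 4.3.3, one model of 3 group means, two-sided, with Benjamini-Hochberg adjustment over all genes. The same code was tested on simulated data. The number of arrays, 3 per group, limits the precision.

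The 40 genes and all gene lists were chosen with earlier results of these data known. By rule, single-array values are given for genes that passed and for the 6 with the largest moderated t in each comparison. The rule also limited probe sequences to probes that encode protein, which could not be tested here, so 30 bases are shown for 5 genes. Alternatives were another background correction, normalization, probe filter and probe rule, the deposited table, slide and replicate blocks, single slides, and leaving out each array. No column was left unmapped.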

Additional observations from a re-analysis of the deposited data

How the results depend on the processing

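With all arrays, 0 of the 40 repair genes passed in any comparison. This count stayed at 0 without the filter on dim probes, with the mean of a gene's probes, with every probe as its own feature and with the replicate block, and moved with other settings. In null against floxed cells it was 1 (Rad54l) with normexp background correction, with probes above background on all 9 arrays and with quantile normalization, and it ranged from 0 to 10 when arrays were left out in turn, 10 being the value without floxed array 3. In null against induced cells it was 1 (Fancf) with normexp, with the filter on all 9 arrays and with the deposited table, 8 with slide as a fixed block, 4 with slide as a random block, 5 within slide 3, and 0 to 8 when arrays were left out. In induced against floxed cells it was 0 throughout.

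The number of all genes that passed depended more on the setting. In null against floxed cells it was 368, against 76 without the filter on dim probes, 570 with normexp, 50 with slide as a fixed block, 103 with slide as a random block and 79 to 4943 when arrays were left out. In null against induced cells it was 438, against 63 without the filter, 3249 with slide as a fixed block, 1812 with slide as a random block, 2465 within slide 3 and 61 to 3610 when arrays were left out. In induced against floxed cells it was 1, against 0 without the filter, with normexp, with the filter on all 9 arrays, with quantile normalization, with the deposited table and with slide as a random block, 174 with slide as a fixed block and 0 to 145 when arrays were left out. The median of the 40 in that comparison was 0.045, against -0.066 with slide as a fixed block and -0.014 as a random block. The cause of these changes was not tested. Floxed and induced arrays never shared a slide, so no within-slide value exists for them. The fixed block links them only through the null arrays, by slide 3 and by null array 3 minus floxed array 3 on slide 2. Its median of -0.066 thus rests on floxed array 3 as the only floxed array.

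Same-numbered arrays did not deviate together (correlations from -0.106 to 0.087), so their numbers do not pair them. With the replicate block, 166 genes passed in null against floxed cells, 1 in induced against floxed cells and 188 in null against induced cells, with 0 repair genes in each. Chek1 was not well above background on 2 of 3 induced and 2 of 3 floxed arrays, which limits its values there.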
